A study of Homo sapiens with 4 samples.

Results

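The transcription factor genes HNF4A, FOXA1, FOXA2, FOXA3, CEBPA, ONECUT1, PROX1 and NR5A2 were followed in cells labelled HepG2, a human liver cancer line, with and without knockdown of PATZ1, a zinc finger transcription factor. All probes that the platform annotation assigns to these 8 genes were taken, which gave 12 probes of 7 genes among the 47323 probes on the array. No probe carried the symbol HNF4A, and this gene was not analysed here. RNA came from 2 samples of cells transfected with PATZ1 siRNA (siPATZ1) and 2 of cells transfected with scrambled control siRNA (siCTRL). Each transfection was in reverse format with 60 pmol of siRNA and lasted 48 h, and all cells were of the same line and medium. Each RNA was hybridized to an Illumina HumanHT-12 v4 BeadChip, which reports a bead signal for each probe. Every probe also has a detection p-value, the share of negative control beads on the array that are at least as bright. The knockdown was transient and used 1 PATZ1 siRNA product, and the labels do not state whether the 2 samples of a group came from different cultures. The p-values then reflect the spread between 2 samples, which may be technical only. The transcript of PATZ1 itself was not detected on any array. Its brightest probe had a signal of 83.3 and 106 in siPATZ1 samples and of 106 and 103 in siCTRL samples, with detection p-values of 0.0649 or more, so the arrays do not check the knockdown. The study reported less PATZ1 mRNA by qRT-PCR and less protein by western blot after PATZ1 siRNA in HepG2 cells.

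These factors form the core of the regulatory network of hepatocytes. HNF4A is a nuclear receptor that binds the promoters and enhancers of most genes typical of hepatocytes. FOXA1, FOXA2 and FOXA3 are forkhead proteins known as pioneer factors, which bind closed chromatin and open it during liver development. CEBPA is a leucine zipper factor that drives metabolic genes of the mature liver and restrains cell division. ONECUT1, also called HNF6, takes part in the growth of bile ducts and hepatocytes, PROX1 is a homeobox factor of early liver bud cells, and NR5A2, also called LRH-1, is a nuclear receptor of bile acid and cholesterol metabolism. The factors bind each other's genes and share many targets.

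Transcripts of CEBPA, FOXA1 and FOXA2 were detected on all 4 arrays, and those of FOXA3, ONECUT1, PROX1 and NR5A2 on none. A probe was called detected at a detection p-value under 0.01. By probe, 3 of the 12 were detected on all 4 arrays and 9 on no array, and the first share, 25%, stood beside 28.1% of all probes on the array. The 9 probes had signals of 49.6 to 90.5, whereas the lowest signal of any detected probe was 133 and 147 on the siPATZ1 arrays and 144 and 142 on the siCTRL arrays. Their lowest detection p-value was 0.269. Every member probe was thus detected on all 4 arrays or on none. A transcript below the limit may still be present, since the limit depends on the probe and on the array.

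**Figure D1:**
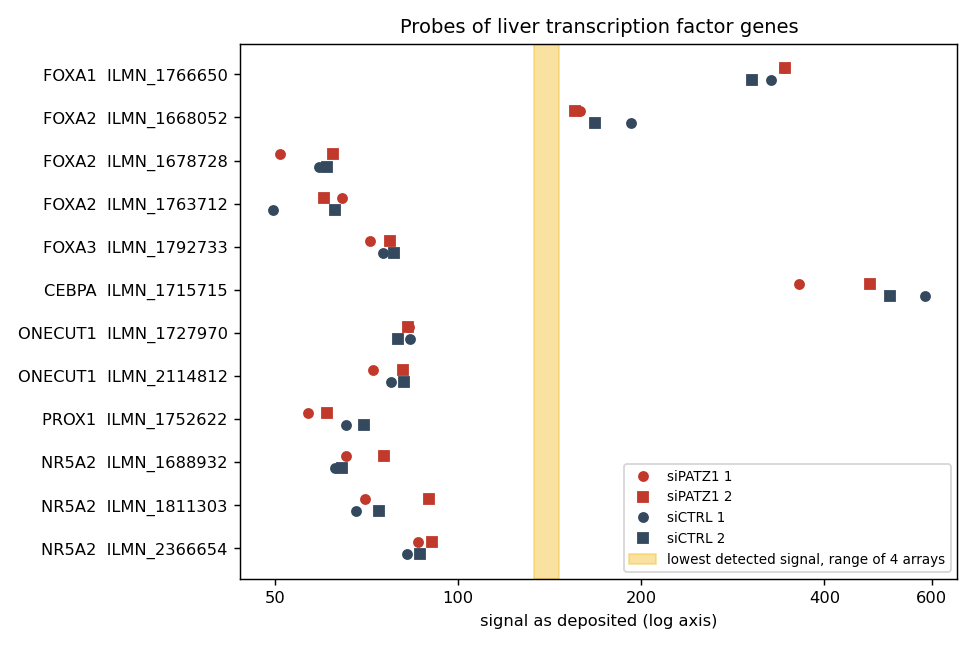
Signal as deposited (log axis) of the 12 probes of 7 liver transcription factor genes, with siPATZ1 samples in red above siCTRL samples in dark blue on each line, replicate 1 as circles and replicate 2 as squares. The band spans the lowest detected signal of the 4 arrays (133 to 147), and the points of CEBPA, FOXA1 and 1 FOXA2 probe are all to its right while those of the other 9 probes are all to its left.

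CEBPA was lower in siPATZ1-treated cells, and of the 3 member probes tested it was the only one that passed. Its probe had a signal of 364 and 476 in siPATZ1 samples, against 585 and 514 in siCTRL samples, with a detection p-value of 0 on every array. Both siPATZ1 samples lay below both siCTRL samples, and replicate 1 of siPATZ1 was the lowest. On the log2 scale after background correction and quantile normalization, CEBPA averaged 8.35 ± 0.29 in siPATZ1 samples and 9.02 ± 0.13 in siCTRL samples (SD, n = 2 each). Set against siCTRL, the siPATZ1 mean differed by -0.67 on the log2 scale (SE 0.17, 95% interval -1.06 to -0.27, adjusted p = 0.0442 from limma with Benjamini-Hochberg adjustment over 15090 probes), or 1.59-fold lower. The 15090 probes are those that both arrays of a group, or all 4, detected, and 12.4% of them passed an adjusted p of 0.05 in either direction, 6.74% being higher and 5.67% lower. The change in CEBPA was larger than that of 92.5% of these probes. The replicates of siPATZ1 differed by 0.41 on the log2 scale, against a median difference of 0.121 between them over all probes tested, and those of siCTRL differed by 0.18 against a median of 0.169. The call rests on all 4 samples, since the log2 fold change was -0.46 without siPATZ1 1 (adjusted p = 0.268), -0.87 without siPATZ1 2 (0.104), -0.58 without siCTRL 1 (0.122) and -0.76 without siCTRL 2 (0.0557), and CEBPA did not pass in any of these fits. It was lower under all 18 alternatives and passed under 9 of them (adjusted p 0.0128 to 0.327).

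**Figure D2:**
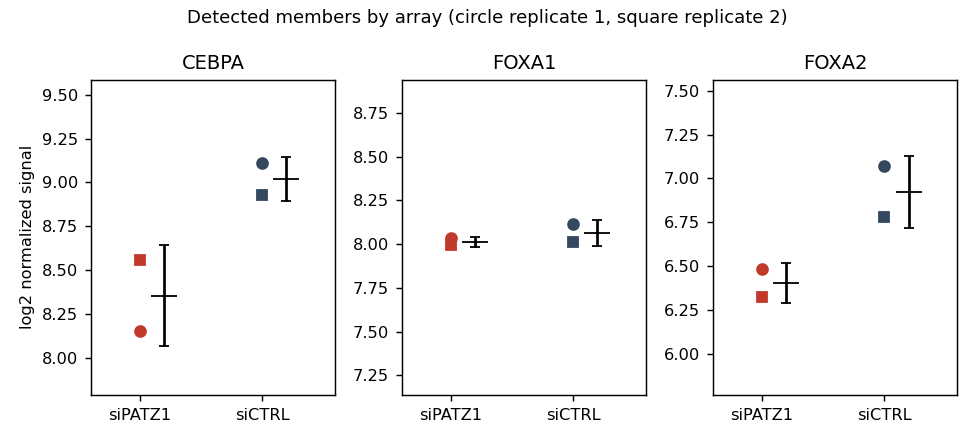
Normalized log2 signal of CEBPA, FOXA1 and FOXA2, siPATZ1 on the left and siCTRL on the right of each panel, with replicate 1 as circles, replicate 2 as squares, and black bars for the mean and SD of 2 samples; each panel spans the same range of log2 units. Both siPATZ1 points of CEBPA and FOXA2 lie below both siCTRL points, and those of FOXA1 overlap with them.

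The DNA just upstream of the CEBPA and FOXA1 starts is shown because CEBPA passed the test and FOXA1, detected as well, did not. It is given as 250 bases before the RefSeq start (GRCh38.p14, minus strand in each case), from chr19:33302535-33302784 for CEBPA and chr14:37595250-37595499 for FOXA1. RefSeq's upstream table held 6 of the 8 genes. Capitals mark TATAAA, the core of a TATA box, searched on the forward strand, and GGGGAGG, the start of the G-rich site that the study's reporter assay mutated in the CDKN1B promoter, searched on both strands (CCTCCCC on the reverse).
CEBPA: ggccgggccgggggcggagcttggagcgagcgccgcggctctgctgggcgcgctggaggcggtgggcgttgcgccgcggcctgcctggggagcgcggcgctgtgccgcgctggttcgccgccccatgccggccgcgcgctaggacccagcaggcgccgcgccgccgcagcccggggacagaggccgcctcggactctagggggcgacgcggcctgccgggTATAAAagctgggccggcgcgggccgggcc
FOXA1: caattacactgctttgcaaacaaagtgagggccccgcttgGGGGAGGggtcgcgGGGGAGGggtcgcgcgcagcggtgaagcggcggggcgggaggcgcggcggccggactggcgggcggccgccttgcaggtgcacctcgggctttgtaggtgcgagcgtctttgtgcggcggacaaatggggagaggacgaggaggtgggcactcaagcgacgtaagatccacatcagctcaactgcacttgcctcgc
CEBPA had 1 TATAAA and no GGGGAGG in this window, and FOXA1 had no TATAAA and 2 GGGGAGG. Of 35116 windows of the same length, 6.8% held TATAAA and 22.5% held GGGGAGG. Both windows were rich in G and C, at 81.2% for CEBPA and 67.2% for FOXA1, against a median of 58% over all windows. A match describes the letters only, and binding was not measured here.

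Of the 3 forkhead members, FOXA1 and FOXA2 did not pass and FOXA3 was not detected. FOXA1 was detected throughout, with a signal of 343 and 344 in siPATZ1 samples and 327 and 304 in siCTRL samples. After normalization it averaged 8.01 ± 0.03 in siPATZ1 samples and 8.06 ± 0.07 in siCTRL samples (SD, n = 2 each), and the groups overlapped. Its log2 fold change was -0.051 (SE 0.12, 95% interval -0.34 to 0.24, adjusted p = 0.823 from limma), with a sign that turned under scaling to a common median (0.085) and with the authors' scaled signals (0.011). The interval reaches a difference of -0.34 on the log2 scale, so that a constant level is not shown.
FOXA2 was close to the detection limit. Its detected probe had a signal of 159 and 156 in siPATZ1 samples, against 192 and 168 in siCTRL samples, with detection p-values of 0.0039 and 0.0078 in siPATZ1 samples and of 0 and 0.0026 in siCTRL samples. Both siPATZ1 samples lay below both siCTRL samples, as did those of 29% of all probes tested. The groups did not overlap in either direction for 59% of these probes, and for 29.9% siPATZ1 was higher. The log2 averages were 6.40 ± 0.11 in siPATZ1 samples and 6.92 ± 0.20 in siCTRL samples (SD, n = 2 each), a difference of -0.52 (SE 0.15, 95% interval -0.87 to -0.17) that did not pass (adjusted p = 0.0623 from limma). FOXA2 had a negative log2 fold change under all 18 alternatives and passed under 4, among them the fit without siCTRL 2 (-0.67, adjusted p = 0.0378). Its value ranged from -0.67 to -0.31, the smallest size being that in the authors' scaled signals.
The other 2 FOXA2 probes were not detected, with signals of 51.0 to 64.4 in siPATZ1 samples and 49.6 to 62.7 in siCTRL samples, and detection p-values of 0.873 or more. The FOXA2 value therefore rests on 1 probe of 3. FOXA3, with 1 probe, had a signal of 71.6 and 77.4 in siPATZ1 samples and 75.3 and 78.6 in siCTRL samples, with detection p-values of 0.484 or more. No fold change is given for probes below the limit in both groups.

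By fold alone, after the background correction used here, CEBPA and FOXA2 were both past the study's 1.4-fold threshold, at 1.59-fold and 1.44-fold lower. FOXA1 was not. FOXA2 fell short of 1.4-fold in the authors' scaled signals (-0.31 on the log2 scale) and without background correction (-0.32). It also did so with an offset of 50 in that correction (-0.39) and with scaling to a common median (-0.42). CEBPA was past it in each of these (-0.51, -0.57, -0.61 and -0.53). When 1 sample was left out, FOXA2 fell short without siPATZ1 2 (-0.44) and without siCTRL 1 (-0.38), and CEBPA without siPATZ1 1 (-0.46). In the fit reported, 7.57% of all probes tested were lower by 1.4-fold or more, and 16.6% changed by as much in either direction. The share of higher probes among those past an adjusted p of 0.05 was 54.3% (1017 higher and 856 lower), and it was 77.2% after scaling to a common median and 64.6% with the authors' scaled signals.

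**Figure D3:**
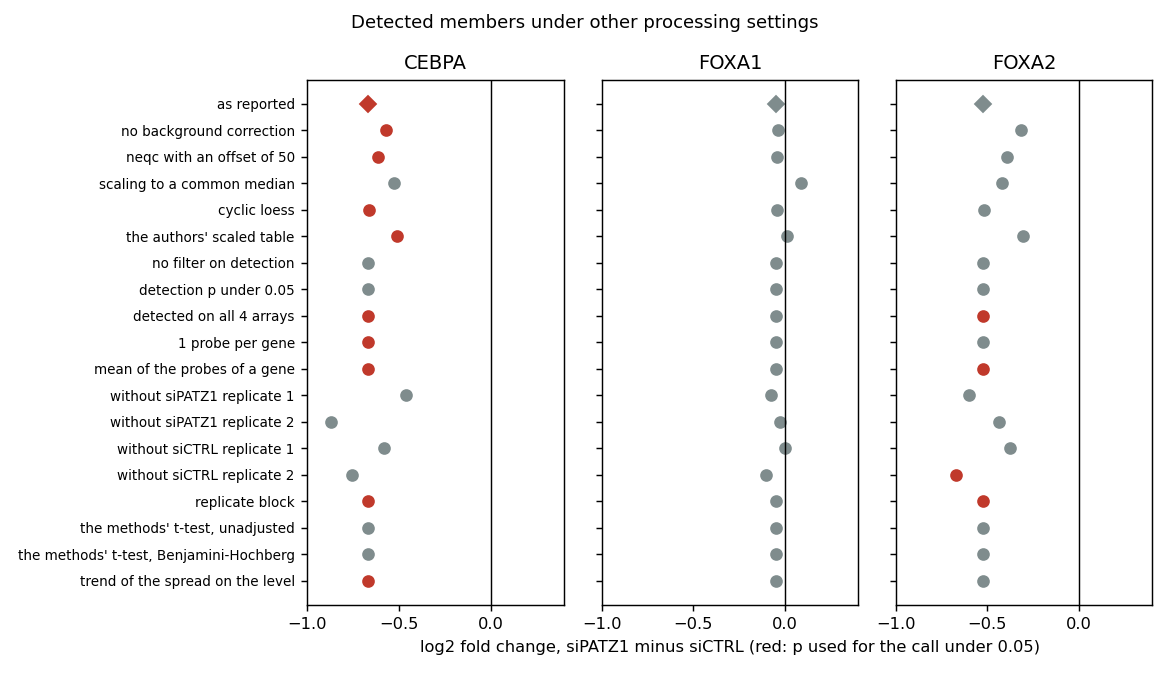
Log2 fold change (siPATZ1 minus siCTRL) of CEBPA, FOXA1 and FOXA2 as reported (diamond, top line) and under 18 other settings (circles), red where the p-value used for the call was under 0.05. CEBPA spans -0.87 to -0.46 and FOXA2 -0.67 to -0.31, all below 0, while FOXA1 spans -0.10 to 0.085 and has points on both sides of 0.

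The remaining members were not detected. ONECUT1 had signals of 72.5 to 82.9 with its 2 probes in siPATZ1 samples and of 77.7 to 83.4 in siCTRL samples, with a lowest detection p-value of 0.325. PROX1 had 1 probe, at 56.6 and 61.0 in siPATZ1 samples and 65.3 and 70.0 in siCTRL samples, with detection p-values of 0.978 and 0.977 in siPATZ1 samples and of 0.834 and 0.740 in siCTRL samples. NR5A2 had 3 probes with signals of 65.5 to 90.5 in siPATZ1 samples and 62.7 to 86.7 in siCTRL samples, and its lowest detection p-value was 0.269. Only FOXA2, of the 7 genes, had probes on both sides of the limit. Whether these transcripts are absent or too scarce for the probes cannot be told from the arrays.

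Over the 4 arrays, and among tested probes with a gene name, those closest to CEBPA in their course were of TRIM47, FSD1 and LRRC26. The nearest probe was taken for each gene. The measure was the Euclidean distance between log2 values after each probe's mean was subtracted, which was 0.039 for TRIM47, 0.0593 for FSD1 and 0.0933 for LRRC26. TRIM47 had a log2 fold change of -0.65 (adjusted p = 0.0536 from limma), FSD1 one of -0.65 (0.0378) and LRRC26 one of -0.59 (0.056). With 4 arrays many probes must share a course, so this is a description only.

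Other factors enriched in liver, among them partners and paralogs of the members, passed at a share near that of all probes. Of 37 such genes 32 had a probe and 20 were tested with 23 probes. Among these probes 1 was higher, 1 was lower and 21 did not pass, where 12.4% of all probes passed in either direction, with a median log2 fold change of -0.04 against 0.0033 over all probes tested. The probe that was higher and the probe that was lower were both of ONECUT2, the paralog of ONECUT1. The first had a signal of 353 and 315 in siPATZ1 samples against 227 and 223 in siCTRL samples, a difference of 0.54 on the log2 scale (SE 0.14, adjusted p = 0.0467). The second was not detected in siPATZ1 samples, at 123 and 129, against 144 and 145 in siCTRL samples, with -0.58 on the log2 scale (adjusted p = 0.0268). This probe was tested only because the siCTRL arrays detected it. So near the limit the size depends on the background correction, without which it was -0.30 and did not pass (0.075), and no fold is given. Another probe had 0.29 (adjusted p = 0.286) and overlapping groups, and its other 3 probes were not tested, so that ONECUT2 has no settled direction. When 1 sample was left out, the higher probe did not pass in any of the 4 fits (0.41 to 0.67), and the lower one passed only without siCTRL 2 (-0.57).
In the C/EBP family, CEBPA was the only gene that passed. CEBPB, the paralog that acts in the acute phase response, had 1853 and 1791 in siPATZ1 samples and 1925 and 1432 in siCTRL samples, a difference of -0.06 on the log2 scale (SE 0.16, adjusted p = 0.849). CEBPD, which also serves the acute phase, had 219 and 251 in siPATZ1 samples and 174 and 139 in siCTRL samples, a difference of 0.72 (SE 0.20, adjusted p = 0.0555). CEBPG, which lacks an activation domain, had 630 and 683 in siPATZ1 samples and 748 and 733 in siCTRL samples, a difference of -0.41 (SE 0.12, adjusted p = 0.0694). None of these passed, and their differences from CEBPA were not tested.
Among the brightest of the other factors, RXRA, the partner of many liver nuclear receptors, had a log2 fold change of -0.03 (adjusted p = 0.917) and NR2F6 one of -0.16 (0.439). XBP1, a factor of the secretory pathway, had 0.45 (0.0545) with the probe at 3600 and 3651 in siPATZ1 samples against 2398 and 2349 in siCTRL samples, and 0.27 (0.283) with the other. GATA4 and GATA6, which act with FOXA2 in early liver, were not detected on any array.

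**Figure D4:**
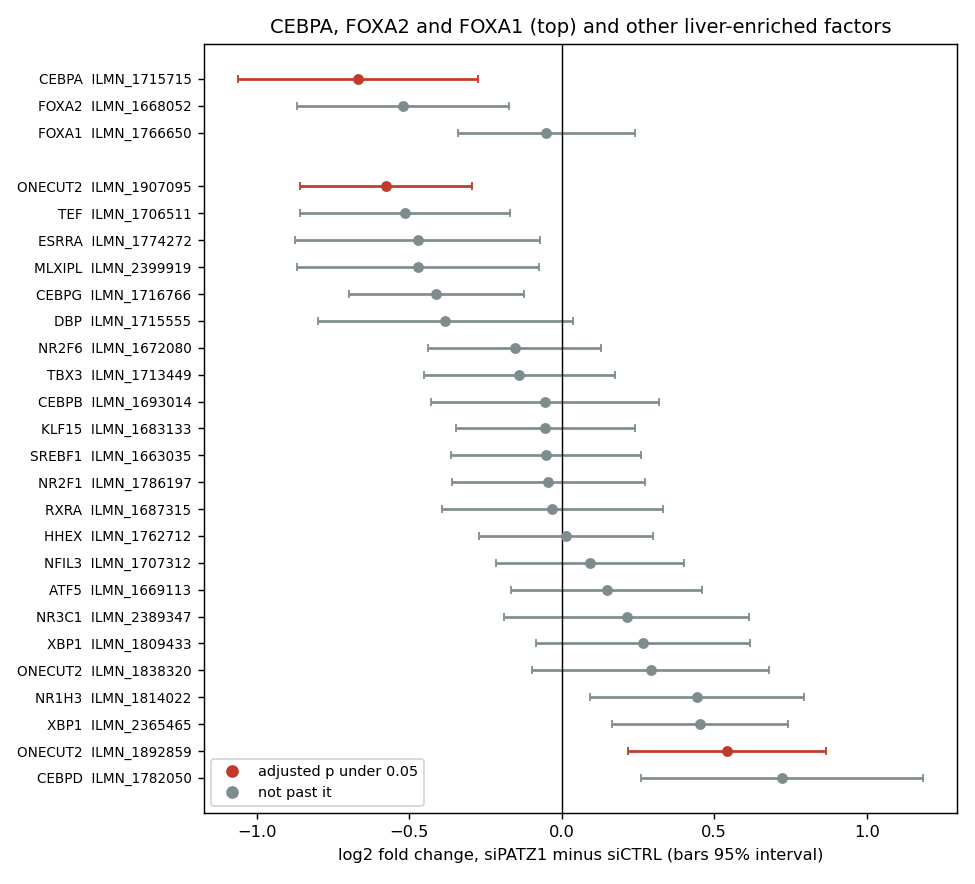
Log2 fold change (siPATZ1 minus siCTRL) with 95% intervals from limma for the 3 detected member probes (top) and 23 probes of other liver-enriched factors, red where the adjusted p was under 0.05. CEBPA at -0.67 and the ONECUT2 probes at -0.58 and 0.54 are red, and the other intervals are grey.

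Further paralogs of the members, not among the factors above, were read for comparison. Of 17 paralogs of the members 16 had a probe and 7 were tested with 10 probes, of which 1 was lower, none was higher and 9 did not pass, where 5.67% of all probes were lower and 6.74% higher (limma, 1 at an unadjusted p under 0.05, and 0 of either direction by the methods' t-test after adjustment over all probes). The lower one was a probe of FOXP1, a forkhead repressor, with 150 and 179 in siPATZ1 samples against 198 and 197 in siCTRL samples and -0.64 on the log2 scale (SE 0.15, adjusted p = 0.0333). A second FOXP1 probe had 0.08 (adjusted p = 0.773), its other 3 probes were not tested, and the first did not pass when any 1 sample was left out (-0.80 to -0.48). FOXO3, the brightest of these genes, had -0.13 (0.559) and 0.08 (0.734) with its probes, FOXD1 had 0.03 (0.916), FOXK1 -0.13 (0.582) and FOXM1 -0.22 (0.464) and -0.015 (0.96).

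The genes that the members are known to drive were mostly below the limit as well. Of 29 secreted liver protein genes with a probe, 27 were not detected on any array and 2 were detected on all 4. Each of these 2 rests on 1 probe, of 2 for ALB and of 6 for FGL1, and the other 44 probes of the list were detected on no array. ALB, the albumin gene, had 165 and 194 in siPATZ1 samples and 202 and 157 in siCTRL samples, or -0.18 on the log2 scale (SE 0.20, adjusted p = 0.601), and FGL1, a fibrinogen-like hepatokine, had 216 and 233 in siPATZ1 samples and 202 and 203 in siCTRL samples, with 0.0067 (SE 0.12, adjusted p = 0.979). Neither passed, nor had either an unadjusted p under 0.05. Of the defining hepatocyte markers, APOA1 had a signal of 91.2 and 94.1 in siPATZ1 samples and of 70.8 to 91.2 in siCTRL samples, TTR, the transthyretin gene, 84.1 to 102 in siPATZ1 samples and 92.6 to 93.4 in siCTRL samples, and SERPINA1, the alpha-1 antitrypsin gene, 102 to 118 with its brightest probe in siPATZ1 samples and 96.5 to 105 in siCTRL samples. AFP, TF, FGB and AHSG were not detected either, so that of 8 hepatocyte markers ALB alone was detected, with 1 of its 2 probes. The neural markers SOX2 and TUBB3, the intestinal factor CDX2 and the fibroblast marker VIM were detected on all 4 arrays. CDX1 and VIL1 of the intestinal list were detected on none, nor were COL1A2, PDGFRB and DCN of the fibroblast list. The name HepG2 comes from the labels. Most of these hepatocyte markers do not bear it out, and the identity of the cells was not tested. Summed over the 13 probes of the 8 hepatocyte markers, the signal was 1126 to 1251 in siPATZ1 samples and 1105 to 1192 in siCTRL samples.
Liver enzymes were detected for a few genes. Of 26 with a probe, 20 were not detected on any array. Among 7 probes of 5 genes tested 1 was lower and 6 did not pass, where 5.67% of all probes tested were lower and 12.4% passed in either direction. The lower one was CYP2E1, the ethanol-metabolizing cytochrome, with 130 and 137 in siPATZ1 samples, where it was not detected, and 209 and 203 in siCTRL samples. CYP2E1 was tested only because the siCTRL arrays detected it, and its siPATZ1 values are below the limit. The call thus draws on the values that admitted the probe, and no fold is given. The difference was -1.27 on the log2 scale (adjusted p = 0.00418 from limma) and -0.75 without background correction (0.00112), and the first call was lost when siPATZ1 1 (0.0538) or siPATZ1 2 (0.06) was left out. ASS1, a urea cycle enzyme, had -0.30 (adjusted p = 0.16) with its brightest probe, CPS1, the first enzyme of that cycle, -0.29 (0.198), GLUL, glutamine synthetase, -0.28 (0.172), and PCK2, the mitochondrial form of phosphoenolpyruvate carboxykinase, 0.48 (0.0755). Of 15 bile acid genes with a probe, among them CYP7A1, the rate-limiting enzyme of bile acid synthesis and a target of NR5A2, 14 were not detected on any array, and the 1 tested, SLC27A5, had -0.04 (adjusted p = 0.884).

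**Figure D5:**
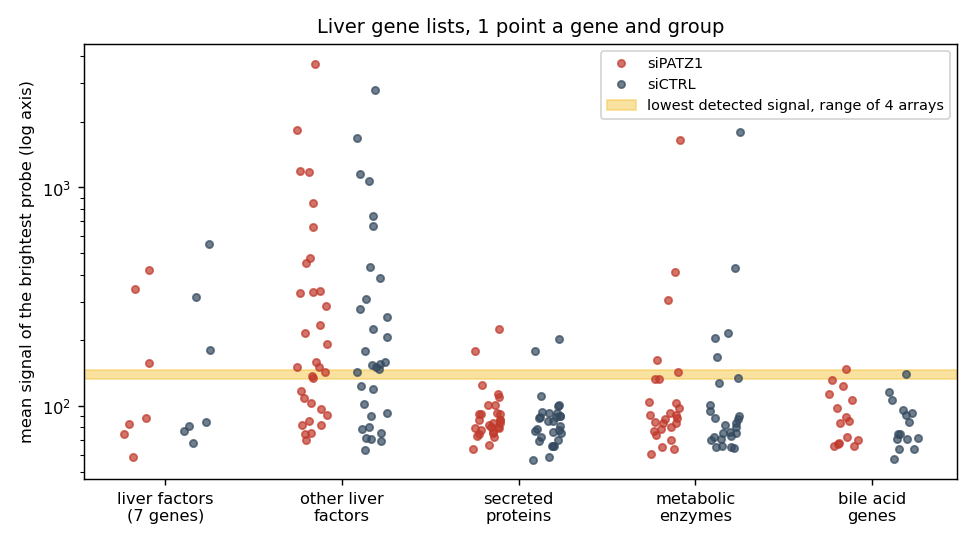
Mean signal over 2 samples (log axis) of the brightest probe of each gene, siPATZ1 in red on the left and siCTRL in dark blue on the right, for the 7 genes with a probe and for the other liver lists, 1 point a gene and group. The band is the lowest detected signal of the 4 arrays (133 to 147), and most genes of secreted proteins and of bile acid metabolism lie below it in both groups.

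Markers of other cell types were read on the same arrays. Epithelial KRT8 and KRT18 were detected and CDH1 and EPCAM were not. None of the 4 endothelial markers was detected. Of the fibroblast and stellate markers ACTA2 was higher, with 1308 and 1405 in siPATZ1 samples against 588 and 826 in siCTRL samples (log2 fold change 0.82, SE 0.19, adjusted p = 0.0377). In that list 4 of 5 probes tested did not pass, where 12.4% of all probes tested passed in either direction. The other 4 were 2 probes of VIM, 1 of COL1A1 and 1 of COL3A1. Of the 3 cholangiocyte markers, SOX9 was detected only in siPATZ1 samples, with 209 and 175 there against 88.2 and 128 in siCTRL samples. The difference was 1.30 on the log2 scale (adjusted p = 0.0388 from limma) and 0.74 without background correction (0.0124). SOX9 was tested only because the siPATZ1 arrays detected it, so the call draws on the values that admitted it. Its siCTRL values are below the limit, and no fold is given. KRT19 was detected on all 4 arrays, at -0.20 (adjusted p = 0.372), and KRT7 on none. The 3 probes of neural markers had a summed signal of 1858 to 1884 in siPATZ1 samples and 1167 to 1191 in siCTRL samples. Of them 2 were higher, where 6.74% of all probes tested were, 1 each of TUBB3 (0.58, adjusted p = 0.0327) and SOX2 (0.55, adjusted p = 0.0457). Of these, TUBB3 passed without siCTRL 1 (0.67) and ACTA2 (1.11) and SOX9 (1.82) without siCTRL 2, and no other fit that left out 1 sample passed. For the fibroblast and stellate list the sum was 14279 to 14388 in siPATZ1 samples and 10014 to 10640 in siCTRL samples, of which VIM made up the most. The VIM probes did not pass, at 0.29 (adjusted p = 0.229) and 0.42 (0.0674), nor did COL3A1 at 0.46 (0.0891) or COL1A1 at -0.51 (0.0893). The intestinal factor CDX2 was detected on all 4 arrays, at 0.38 (adjusted p = 0.133), and of the leukocyte markers LYZ had 0.46 (0.073) and CD68 -0.19 (0.402) and -0.33 (0.151), none of which passed. The sums are of signals as deposited, and other lists had higher sums in siPATZ1 samples too. The housekeeping genes had 63754 to 66175 against 53932 to 56784 in siCTRL samples, and none of their 10 probes passed. The epithelial markers had 6279 to 6530 against 4384 to 5567. The hepatocyte and leukocyte sums overlapped between the groups. The markers that passed and the neural and fibroblast sums were higher where CEBPA was lower. COL1A1, KRT19 and CD68 had negative log2 fold changes, none of which passed. Any link between the markers and CEBPA was not tested. In RNA of a whole culture, fewer cells that express a gene and less RNA per cell cannot be told apart. Array brightness differed as well, with a mean signal of 523 and 555 on siPATZ1 arrays and of 503 and 492 on siCTRL arrays before normalization.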

How the data were processed

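Expression was measured on 4 Illumina HumanHT-12 v4 arrays, 2 of siPATZ1 and 2 of siCTRL samples, grouped by the labels. The authors deposited probe intensity on a linear scale, not normalized, with a detection p-value beside each, for 47323 probes, and a second table, of 47321 probes, in which all arrays share 1 mean. GenomeStudio is the only tool in the submitters' processing notes, and its settings are not given in the sources used here. All per-sample columns were used.

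Intensities were corrected and quantile normalized with neqc (limma 3.58.1, R 4.3.3, offset 16), which uses the detection p-values and returns log2 values. Gene names came from the platform annotation (30112 probes with 1 gene, 8 with several, 17203 unnamed here) and were updated through RefSeq's gene identifiers. The fit took 15090 probes, for which the 2 arrays of siPATZ1, or the 2 of siCTRL, or all 4, had detection p-values under 0.01, and used lmFit and eBayes (2 residual and 5.32 prior degrees of freedom), with Benjamini-Hochberg adjustment across these probes. The number of arrays limits the precision. An exact permutation test of 2 against 2 cannot go below p = 0.333 and was not used. The scripts were tested on simulated data.

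The members and gene lists were chosen with earlier results of these data known. Every member probe is given. From each list the text names members past an adjusted p of 0.05, up to 4, and up to 4 further ones with the brightest probe, with the defining hepatocyte markers. CEBPD, CEBPG, GATA4 and GATA6 were named after their values were seen. The 18 alternatives changed the background correction, normalization, detection filter, unit of the fit, test, samples or design.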

Additional observations from a re-analysis of the deposited data

How the results depend on the processing

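CEBPA and FOXA2 had negative log2 fold changes (siPATZ1 minus siCTRL) under all 18 alternatives, and each changed its side of the threshold under some of them. The number of member probes past the threshold, 1 as reported, was 0 with scaling to a common median, with no filter on detection, at a detection p under 0.05 and with the methods' t-test, unadjusted or adjusted by Benjamini-Hochberg. It was 2 for probes detected on all 4 arrays and with the mean of the probes of a gene. It was 0 to 1 when 1 sample was left out. By limma, CEBPA had -0.53 with scaling to a common median (adjusted p = 0.067), where the median of all probes was 0.122, and -0.67 with no filter (0.168), at a detection p under 0.05 (0.0751) none of which passed. It did not pass the methods' t-test either, at the same -0.67 (unadjusted value 0.0957, adjusted 0.327). It ranged from -0.87 to -0.46 when 1 sample was left out. FOXA2 kept -0.52 and passed for probes detected on all 4 arrays (0.0482) and with the mean of the probes of a gene (0.0457). That mean took kept probes only, so for FOXA2 it was the same 1 probe, among 9435 genes tested. FOXA2 ranged from -0.67 to -0.38 when 1 sample was left out. FOXA1 turned to 0.085 with scaling to a common median and to 0.011 with the authors' scaled signals, and ranged from -0.10 to 0.0022 when 1 sample was left out.

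Over all probes, 1932 were higher and 569 lower with scaling to a common median, 1685 higher and 923 lower with the authors' scaled signals, 57 higher and 22 lower with no filter, and 618 higher and 513 lower at a detection p under 0.05. The methods' t-test gave 1459 higher and 1393 lower unadjusted, and 0 higher and 0 lower after adjustment. When 1 sample was left out, 0 to 1122 were higher and 0 to 922 lower. The fits without siPATZ1 2 gave 0 (limma, 1650 higher and 1268 lower at an unadjusted p under 0.05), and those without siPATZ1 1 gave 31 higher and 11 lower. The lone sample of a group is assumed there to vary like the other group. More probes tested, or fewer samples, enter these fits by construction, and the cause of the other shifts was not tested.

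The labels number the samples 1 and 2 in each group, and nothing says that a number marks a shared culture or day. Deviations of same-numbered samples from their group means had r = -0.028 over the probes tested. With the replicate number as a block 2 member probes passed, CEBPA at -0.67 (adjusted p = 0.0343) and FOXA2 at -0.52 (0.0451), and 1102 probes were higher and 915 lower.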
